A study of Mus musculus with 3 samples.

Results

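miR-22-3p, the main product of the miR-22 gene, was followed through postnatal heart growth as 1 of 1900 mature microRNAs (miRNAs) listed in small RNA sequencing counts. It was taken by its accession in miRBase, the registry of miRNA sequences, as the single row whose identifier was MIMAT0000531. That this accession stands for miR-22-3p was given with the question and was not looked up in a file. Of the 3 libraries, 1 came from wild type C57BL/6 hearts at postnatal day 1 (P1), 1 from day 7 (P7) and 1 from day 28 (P28), with no transgene, deletion or treatment named for any of them. The labels give heart as the tissue, the study's text speaks of ventricles, and neither states how many hearts went into a library. With 1 library per age there was no replicate, so every interval given here covers counting error only, no p-value was computed, and a difference between libraries cannot be told apart from a difference between hearts.

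miRNAs are short RNAs that guide Argonaute proteins to messenger RNAs by pairing through their seed, and they lower the stability and translation of those messages. miR-22 is abundant in heart and skeletal muscle, and it is known from mouse studies as a regulator of cardiomyocyte growth and of the cardiac response to stress. Sirt1, a deacetylase, Hdac4, a repressor of muscle transcription, and Purb, a repressor of contractile genes, are among the targets described for it in the heart.

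The mature sequence and that of its partner arm are shown because the seed, bases 2 to 8 in capitals, sets which messages each can pair with. The first was the RNA measured here, and both come from RefSeq (GRCm38.p6).
miR-22-3p: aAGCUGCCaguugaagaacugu
miR-22-5p: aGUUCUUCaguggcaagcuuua
Among 1679 mature mouse miRNA names in that table, 1 carried the seed of miR-22-3p, namely miR-22-3p itself. It was also the only name with the same bases 2 to 7. Within this table, miR-22-3p thus had no family that shared its seed.

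Both arms are cut from one precursor. In the hairpin, shown to place the arms, miR-22-5p (positions 19 to 40) and then miR-22-3p (positions 57 to 78) are in capitals.
Mir22 hairpin: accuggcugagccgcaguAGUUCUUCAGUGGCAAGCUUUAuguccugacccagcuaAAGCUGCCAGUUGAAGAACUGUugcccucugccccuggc
The hairpin lies on the plus strand at chr11:75463716-75463810 (GRCm38), and the miR-22-3p arm at chr11:75463772-75463793. It is exonic. The annotation (GENCODE M21) places it wholly inside exon 2 of Mir22hg, a noncoding host gene of 5138 bases at chr11:75461539-75466676, in both annotated transcripts, starting 23 bases into that exon. Of 1005 mouse hairpins, 1 held the complete miR-22-3p sequence, and the longest stretch of it found in any other hairpin was 9 bases. In that table a full-length read of miR-22-3p therefore has 1 exact place of origin.

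The level of miR-22-3p was higher in each older library. It had 3143 reads of 1944237 at P1, which is 1617 CPM (reads divided by the library total and scaled to 1000000), with a 95% Wilson interval of 1561 to 1674. At P7 it had 8241 reads of 2465680, or 3342 CPM (3271 to 3415). At P28 it had 16176 reads of 2842526, or 5691 CPM (5604 to 5779). The 3 intervals did not overlap, and the order of the libraries was P1, P7, P28 from lowest to highest. Reads of this number are far above the limit of detection, since 3 reads correspond to 1.06 to 1.54 CPM at these depths. In bulk hearts, more RNA per cell and more cells of a type that makes it cannot be told apart.

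**Figure D1:**
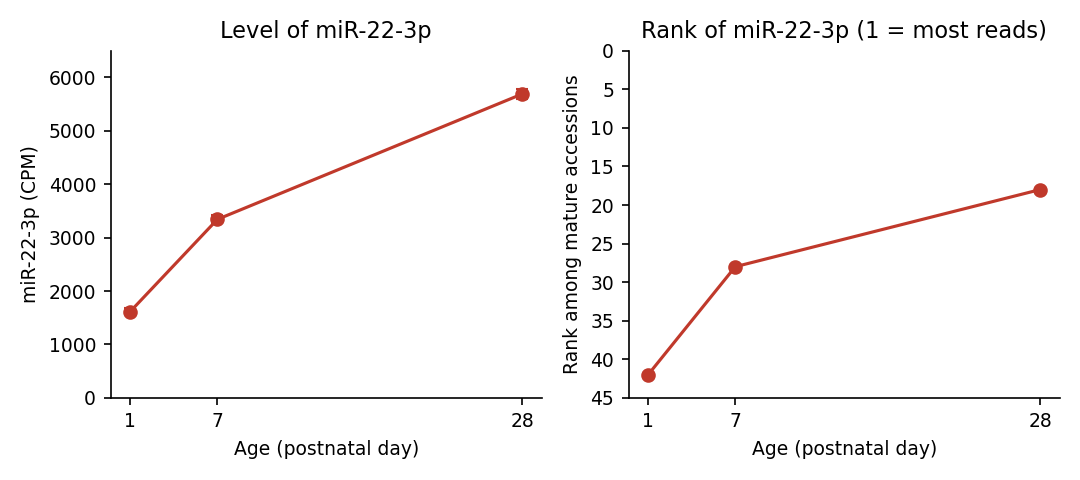
Left, level of miR-22-3p in CPM (axis from 0) against age in postnatal days, 1 library per age, with 95% Wilson intervals that are hardly larger than the points. Right, its rank among 1900 mature accessions, with rank 1 at the top. Of the 1900, 657, 712 and 606 had any read at P1, P7 and P28. The level went from 1617 to 3342 and 5691 CPM and the rank from 42 to 28 and 18.

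As a share of the library total, miR-22-3p came to 0.162% in the P1 library, with a 95% Wilson interval of 0.156 to 0.167. Its share was 0.334% (0.327 to 0.342) in the P7 library and 0.569% (0.560 to 0.578) in the P28 library. The library total sums all rows, so accessions with matching counts each enter it. With mature rows only and duplicated accessions once, the shares were 0.177%, 0.366% and 0.612%, each above its interval. By either total, miR-22-3p remained a small part of each library. The most abundant accession alone held between 42.6% and 45.3% of the reads. Set against that accession, miR-22-3p had 3.76 reads for every 1000 on day 1, 7.84 on day 7 and 12.6 on day 28, a ratio within each library that does not depend on how libraries are scaled.

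Its position among the other miRNAs moved up as well. Of the 1900 mature accessions, 657 had any read on day 1, 712 on day 7 and 606 on day 28. Ranked by reads, miR-22-3p held rank 42 on day 1, rank 28 on day 7 and rank 18 on day 28. At P1 the accession just above it was at 1667 CPM (1611 to 1725) and the one just below at 1589 CPM (1534 to 1646), both within counting error of miR-22-3p. At P7 it stood clear of both neighbours, at 4018 CPM (3940 to 4098) and 3155 CPM (3085 to 3225). At P28 the accession above, at 5701 CPM (5614 to 5789), could not be separated from it, whereas the one below, at 5509 CPM (5424 to 5596), was lower beyond counting error. Its own counting interval spanned ranks 41 to 43 in the P1 library, rank 28 alone in the P7 library and ranks 17 to 18 in the P28 library.

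With age miR-22-3p passed other miRNAs and was passed by none. Of the 41 accessions with more reads than miR-22-3p at P1, 14 had fewer at P7 and 24 had fewer at P28, and 0 accessions that were below it at P1 were above it at either later age. From P7 to P28 it passed 10 of the 27 then above it. These orders are taken within libraries, so no scaling enters them. Accessions with matching counts were counted separately in them. With mature rows only and duplicated accessions counted once, the ranks of miR-22-3p were 40, 26 and 17 at P1, P7 and P28. Passing is by reads alone, and accessions within counting error of miR-22-3p were not left out. An order alone does not tell a rise of miR-22-3p from a fall of the accessions it passed.

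The first comparison asked how miR-22-3p differed between P1 and P7, the week in which mouse cardiomyocytes largely leave the cell cycle. It was 2.07-fold higher at P7 (95% Clopper-Pearson interval 1.98 to 2.15), a log2 ratio of 1.05 (0.99 to 1.11). A ratio of 2-fold lies inside that interval, so miR-22-3p was past the 2-fold line in these libraries only narrowly. Among the 279 accessions that averaged 10 CPM or more over the libraries, 31, or 11.1%, were at least 2-fold higher at P7. The median log2 ratio of the 279 was 0.03, and the quartiles were -0.51 and 0.59. Of these accessions, 27 had a higher ratio than miR-22-3p and 251 a lower one. Accessions with matching counts stay separate in such counts, here and below, unless counting once is stated.

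Between P1 and P28, miR-22-3p was 3.52-fold higher (3.39 to 3.66), a log2 ratio of 1.82 (1.76 to 1.87). At least 2-fold higher levels at P28 were found for 38 of the 279 accessions, or 13.6%, by library totals. That share depended on the scaling. It was 25.1% under TMM, 25.8% under DESeq2 size factors and 21.1% with the total without the 10 most abundant accessions. By library totals the median accession was lower at P28, with a log2 ratio of -0.74 and quartiles of -1.85 and 0.35. This placed miR-22-3p 2.55 above the median on the log2 scale. Only 9 accessions had a higher ratio. As a difference in CPM by library totals, miR-22-3p gained 4074, the 7th largest gain, which is a gain in share and not in amount. A larger gain was found for 6 accessions, among them a pair with matching counts that is counted separately.

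From P7 to P28, miR-22-3p was 1.70-fold higher (1.66 to 1.75), a log2 ratio of 0.77 (0.73 to 0.81), which is short of 2-fold. Here 8 of the 279 accessions, or 2.87%, were at least 2-fold higher by library totals, and the median log2 ratio was -0.79. Both values depended on the scaling. A higher ratio than that of miR-22-3p was found for 12 accessions. Per day, its log2 ratio amounted to 0.17 over the 6 days from P1 to P7 and to 0.037 over the 21 days from P7 to P28. Under TMM and DESeq2 size factors the second rate was 0.067 and 0.071, and the first was 0.18 and 0.17. The 3 comparisons share libraries and are not independent of each other.

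**Figure D2:**
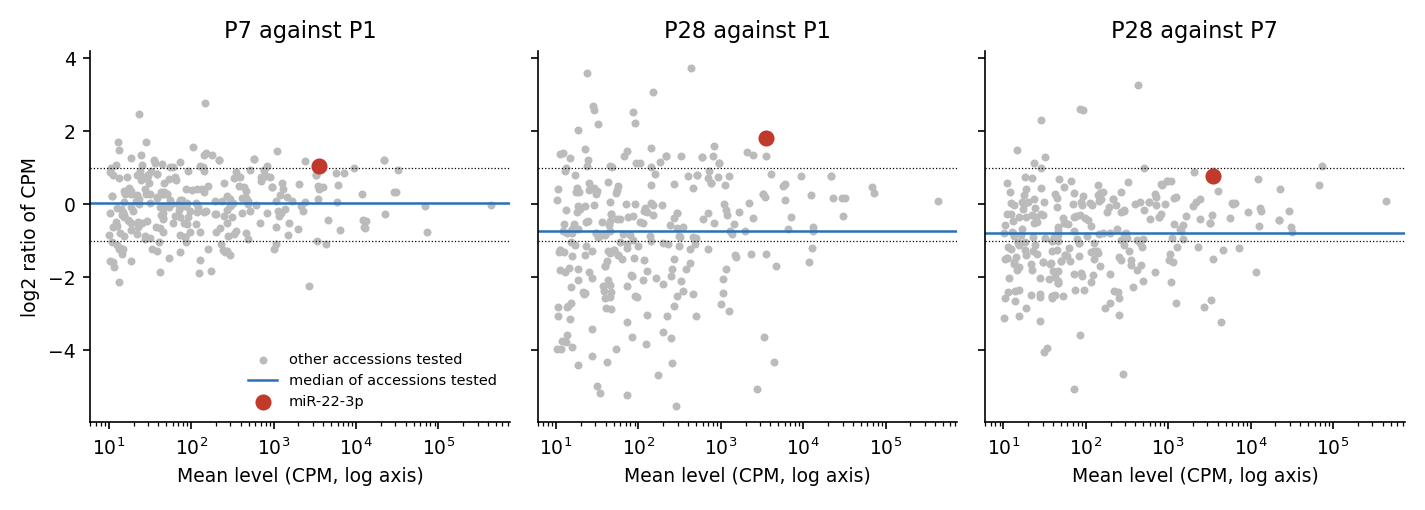
Log2 ratio of CPM against mean level in CPM (log axis) for the 279 accessions tested, in 3 comparisons. miR-22-3p is the large red point, the blue line is the median of all accessions tested and dotted lines mark 2-fold; miR-22-3p lies at 1.05, 1.82 and 0.77, above the medians of 0.03, -0.74 and -0.79.

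The size of the difference depended on the scaling wherever P28 was involved, and there the scalings also moved the median of all accessions by 0.35 to 0.73 on the log2 scale. Scaling by TMM, which sets a typical accession near no change, gave 5.52-fold at P28 against P1 and 2.66-fold at P28 against P7. Size factors of DESeq2 gave 5.67-fold and 2.82-fold. The library total without the 10 most abundant accessions gave 4.90-fold and 2.17-fold. All 3 of these carried miR-22-3p past 2-fold from P7 to P28, where the library total did not. They did the same for other accessions, and 11.5% of the 279 were at least 2-fold higher from P7 to P28 under TMM, 14.0% under DESeq2 size factors and 6.09% with the reduced total, against 2.87% by library totals. At P7 against P1 the same scalings gave 2.07-fold, 2.01-fold and 2.26-fold. miR-22-3p was higher at the older age under all 4 scalings in all 3 comparisons, and the distance of miR-22-3p from the median accession is the same under each by construction.

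**Figure D3:**
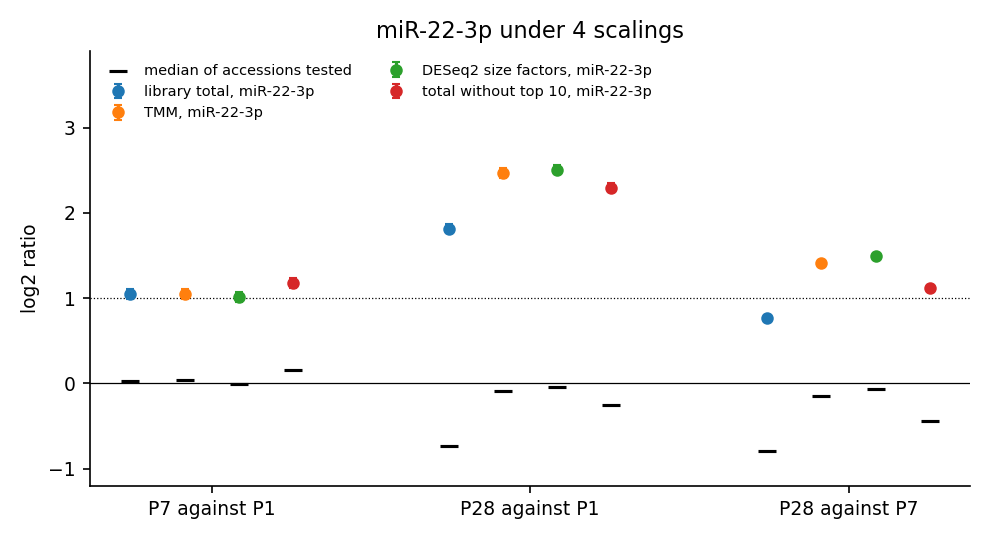
Log2 ratio of miR-22-3p under 4 scalings (coloured points, bars as wide as the 95% counting interval) in 3 comparisons, with the median of the 279 accessions tested as black dashes and 2-fold as a dotted line. In the comparisons with P28 the points and the medians shift together by up to 0.73, and at P28 against P7 only the library total leaves miR-22-3p below the dotted line.

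No accession more abundant than miR-22-3p had as high a ratio at P28 against P1. Its mean over the libraries was 3550 CPM, the 24th highest, and 23 accessions had a higher mean. At P28 against P1, the log2 ratios of these 23 ran from -4.32 to 0.84 with a median of 0.16, so 0 of them reached 2-fold by library totals and 0 exceeded miR-22-3p. Under TMM and DESeq2 size factors 7 of the 23 reached 2-fold and with the reduced total 5 did, while 0 exceeded miR-22-3p under any of the 4 scalings. At P7 against P1, 2 of the 23 had a higher ratio than miR-22-3p, and the median of the 23 was 0.06. The counts of these 2 matched within 1% in every library, and with duplicated accessions counted once 1 of 22 had a higher ratio. At P28 against P7, 1 of the 23 had a higher ratio, and the median of the 23 was -0.18 by library totals, 0.46 under TMM, 0.54 under DESeq2 size factors and 0.17 with the reduced total. These counts describe the 3 libraries and were not tested.

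The accessions that followed the most similar course were sought among 133 others that averaged 100 CPM or more. Likeness was the larger of the 2 differences from miR-22-3p in log2 ratio, that of the first step (P1 to P7) and that of the second (P7 to P28), over 3 libraries. Closeness in these 2 steps therefore follows from the selection and is no separate result. The closest was MIMAT0000537, which was at 411 CPM at P1 (95% Wilson interval 383 to 440), 855 CPM at P7 (819 to 892) and 1240 CPM at P28 (1200 to 1281). It differed by at most 0.23, against a median difference of 1.58 over all 133. Its first step, a log2 ratio of 1.06 (0.94 to 1.18), matched that of miR-22-3p within counting error. Its second step was smaller, at 0.54 (0.46 to 0.62). miR-22-3p accordingly had 3.93 reads for each of its reads on day 1, 3.91 on day 7 and 4.59 on day 28.

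The next was MIMAT0000236, at 71.0 CPM on day 1 (60.1 to 83.8), 144 CPM on day 7 (130 to 160) and 206 CPM on day 28 (190 to 223). Its log2 ratios were 1.02 (0.73 to 1.31) and then 0.51 (0.32 to 0.71), the first again within counting error of miR-22-3p and the second lower. The 5 most similar accessions had differences of up to 0.48. The rest of the 5 had smaller first steps, at 0.76 (0.65 to 0.88), 0.71 (0.53 to 0.90) and 0.57 (0.49 to 0.64). That of miR-22-3p was 1.05 (0.99 to 1.11). Only the least similar of the 5 had a larger second step than miR-22-3p, at 0.88 (0.82 to 0.93) against 0.77 (0.73 to 0.81). All 5 were less abundant than miR-22-3p in their mean, at 140 to 2061 CPM, and their log2 ratios at P28 against P1 were 1.31 to 1.59, each below the 1.82 of miR-22-3p. The count table pairs no accession with a name, and no name was assigned to these.

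**Figure D4:**
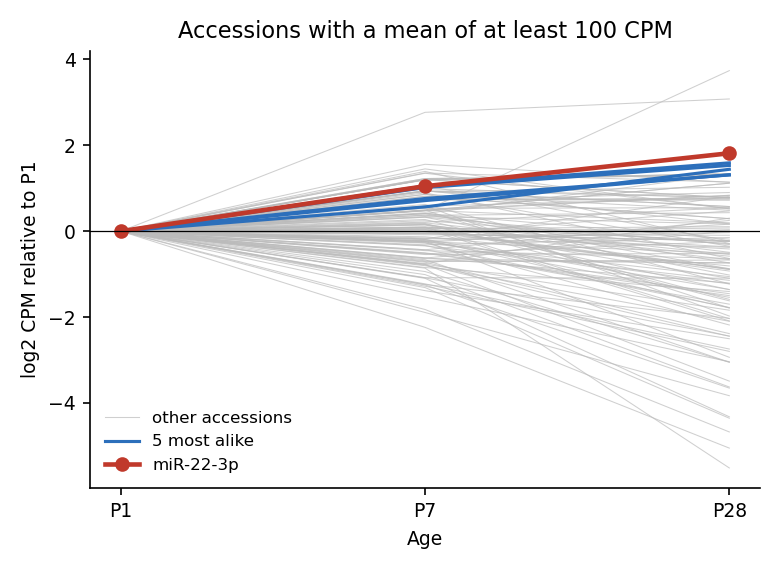
Log2 CPM relative to P1 at P1, P7 and P28 for accessions averaging 100 CPM or more, 1 library per age. miR-22-3p is in red, the 5 accessions with the most similar course in blue and the others in grey. By library totals, at P28 the red line ends at 1.82, the blue lines at 1.31 to 1.59 and most grey lines below 0. Under TMM every line would end 0.65 higher, so where the grey lines end relative to 0 depends on the scaling.

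For orientation on what the measured seed can pair with, sites in the 3′ untranslated regions of the targets named above are printed. Targets were not measured in these libraries. The 7 bases complementary to the seed (GGCAGCT, read on the sense strand of the longest annotated 3′ untranslated region of each gene) are in capitals, and coordinates are GRCm38, minus strand.
Sirt1, chr10:63320152-63320176: ttttccaaaacttgtGGCAGCTaac
Hdac4, chr1:91929847-91929871: ttgcacgccaaactcGGCAGCTttg
Purb, chr11:6472739-6472763: tattttgtactacaaGGCAGCTgtt
Sirt1 and Hdac4 each held 1 match and Purb held 2, the one not shown starting at base 5 of the region. In Sirt1 the match was followed by an A, the base that lies opposite the first base of the miRNA. Such matches are common. Of 21021 genes with an annotated 3′ untranslated region, 12.8% held the 7 bases, and long regions did so more often. Among regions within 20% of the length in question the share was 16.3% for Sirt1, 31.2% for Hdac4 and 44.9% for Purb. A match is a description of the letters and not a measured site.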

How the data were processed

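Small RNA libraries were prepared with a NEBNext kit. The authors' deposited values are whole-number counts of reads per accession, not normalized. The submitters' processing notes name bcl2fastq, TopHat and the mm10 build, and the study's methods, written for all its sequencing, add counting with Bioconductor packages. The release of miRBase, the use of strand and the handling of reads that fit several places are not given in the sources used here.

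The 3 columns were assigned to ages by the age code in their names. Of 2049 rows, 2035 carry mature accessions and 14 carry stem-loop accessions. Rows of one mature accession were summed and divided by the total of all rows. Ratios used a pseudocount of 0.5 reads on the log2 scale. Accessions averaging 10 CPM or more were compared, and past 2-fold means the ratio alone, since edgeR's quasi-likelihood test could not be fitted with 1 library per age. Shares and levels have 95% Wilson intervals and ratios 95% Clopper-Pearson intervals. No molecular identifiers are stated, so reads from one molecule are counted separately. Ratios and intervals were checked on simulated Poisson counts with known folds. Those counts follow the counting model of the intervals and hold no spread between hearts, so the check covers the calculation only.

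The member and all lists were chosen with earlier results of these data known. No source used here pairs accessions with names. That MIMAT0000531 is miR-22-3p was taken as given and not looked up. The counts of miR-22-5p, the lists of striated muscle, cardiac growth and cell type marker miRNAs, and a check of the tissue by its markers were therefore not analysed here. By the naming rule, the partner arm, sharers of the seed, rank neighbours, the most abundant accessions, the listed miRNAs and the 5 accessions most like miR-22-3p were to be named. Only the 2 most similar are given by accession. Sirt1, Hdac4 and Purb were chosen from general knowledge of miR-22. Alternatives were TMM (edgeR 4.0.16), DESeq2 1.42.0 size factors, the total without the 10 most abundant accessions, a pseudocount of 5 reads, filters at 1 or 100 CPM or none, a ratio of 1.5, rows ranked singly, and mature rows only with duplicated accessions counted once (counts within 1% in every library, at least 300 reads in all, which left out 10 accessions). Calculations ran in Python 3.11.15 with scipy 1.17.1, numpy 2.4.6 and pandas 2.3.3, figures in matplotlib 3.10.9 and the scalings in R 4.3.3.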

Additional observations from a re-analysis of the deposited data

How the results depend on the processing

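The log2 ratio of miR-22-3p stayed positive in every alternative run. In what follows, the first step is P7 relative to P1, the second step P28 relative to P7, and the whole span P28 relative to P1. TMM moved the log2 ratio to 2.46 over the whole span and 1.41 over the second step, DESeq2 size factors moved it to 2.50 and 1.495, and leaving the 10 most abundant accessions out of the total moved it to 2.29 and 1.12, with 1.18 over the first step. That reduced total raised the share of miR-22-3p to 0.567%, 1.28% and 2.78% on days 1, 7 and 28, as its construction requires. With mature rows only and duplicated accessions once, the shares were 0.177%, 0.366% and 0.612%, and its ranks 40 on day 1 and 26 on day 7. With rows ranked singly, its rank on day 7 was 25. By Euclidean distance 5 of the 5 most similar accessions were the same. Under TMM 5 of 5 were too, which follows from the construction, as a scaling shifts every ratio alike, and is no check.

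The counts past 2-fold that serve as background moved more. Library totals placed 31 accessions up and 32 down in the first step, 38 up and 119 down over the whole span, and 8 up and 119 down in the second step, so that 49.2%, 24.2% and 6.30% of those past 2-fold were up. TMM placed 70 up and 80 down over the whole span (46.7% up), with 32 up and 61 down in the second step (34.4%). DESeq2 size factors placed 72 up and 80 down (47.4%), then 39 up and 57 down (40.6%). The reduced total placed 59 up and 87 down (40.4%), then 17 up and 89 down (16.0%), with 43 up and 24 down in the first step (64.2%). For the first step, the whole span and the second step in turn, a minimum of 1 CPM placed 67, 76 and 39 up with 71, 211 and 204 down. A minimum of 100 CPM placed 17, 19 and 2 up with 14, 46 and 44 down. Without a filter, 208, 172 and 111 were up with 188, 357 and 358 down. At 1.5-fold, 70 were up with 65 down in the first step, and 22 were up in the second. Of 74 combinations of a value and an alternative, 29 stayed within counting error or 1.5 times the count, and 45 did not. Several outcomes were fixed by construction. These include the likeness under TMM, the rise of the shares under the reduced total and the direction of counts under other filters or folds. The tally is therefore no measure of robustness.

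No paired analysis was possible because the design gives a single library to each age, and leaving out a replicate was not possible. The ratio of miR-22-3p to miR-22-5p was not run, as the partner arm was not identified by accession.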
